A study of Cunninghamia lanceolata with 2 samples.

Results

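The NIP aquaporins of Chinese fir (Cunninghamia lanceolata) roots were taken as the genes whose product name in the expression table reads aquaporin NIP, which are 7 of 32731 assembled genes. Roots of seedlings were sequenced after 4 months at low phosphorus (LP, below 0.01 mM, the phosphorus of distilled water) or at sufficient phosphorus (CK, 1 mM), following 1 month of cultivation in dilute Hoagland solution that both groups shared. Each phosphorus level has 1 library. The labels do not give the number of plants behind a library, their age at harvest or their clone. The question is how transcript levels in the root differ with the phosphorus supply. With 1 library per group no test across plants was possible, and "higher" and "lower" describe these 2 libraries. The members were selected on annotation text, and the family was chosen by its ratios of LP to CK level, known beforehand, so every value of it is a description.

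Aquaporins are membrane channels of the major intrinsic protein family. Plants have several subfamilies, among them the plasma membrane intrinsic proteins (PIP), the tonoplast intrinsic proteins (TIP) of the vacuole, the small basic intrinsic proteins (SIP) and the nodulin 26-like intrinsic proteins (NIP). NIP channels are named after nodulin 26 of the soybean root nodule membrane, and many of them carry small uncharged solutes such as boric acid, silicic acid, arsenite and glycerol more readily than water. In Arabidopsis a NIP channel takes boric acid into the root, and in rice another takes in silicic acid.

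The LP library held 48502899 estimated reads and the CK library 17848911, so a level is known with less counting error in LP. Levels are in RPKM, that is, reads per kilobase of gene length after division by sequencing depth. A gene was counted as higher or lower when log2((LP + 1)/(CK + 1)) on RPKM was at least 1 or at most -1, which is 2-fold on that scale, among the 30843 genes averaging 1 RPKM or more over both libraries. The median of this log2 ratio over those genes was -0.16, with 8.68% of them higher and 16.2% lower. The tissue label was compared with marker text. Genes with a Casparian strip or suberin term, which mark the root endodermis and its barriers, summed to 994 RPKM in LP and to 574 RPKM in CK over 14 genes, none of them at 0 reads, with 5 higher and 0 lower. Genes with root hair terms summed to 3475 RPKM and 3532 RPKM over 31 genes, with 2 higher and 4 lower. Photosystem, light-harvesting and Rubisco genes, which mark green shoot tissue, summed to 473 RPKM in LP and to 890 RPKM in CK over 52 genes. Of these, 5 were higher and 12 lower, with a median log2 ratio of 0.02. The CK sum includes 434 RPKM of the photosystem II gene comp24767_c0 (PsbA), whose LP level was 49.1 RPKM. The Rubisco small chain genes comp5107_c0 and comp20871_c0 went the other way. Their CK levels were 0.21 and 0.56 RPKM, against 9.62 and 13.3 RPKM in LP. The lower LP sum was thus not shared by the list as a whole. Of the fungal terms searched, chitin synthase and hydrophobin matched 0 genes, and the 6 kept genes with other fungal terms summed to 128 RPKM and 134 RPKM, with 2 higher and 1 lower. Of all 10 genes with such terms, 4 had 0 reads in CK and 0 had 0 reads in LP. Those 4 had 3, 5, 19 and 23 reads in LP. At an equal level, the lower depth of CK would have given 1.10, 1.84, 6.99 and 8.46 reads. The fungal-term gene comp23232_c0, which did not pass the filter, went the other way, with 1.05 reads in LP and 24 in CK. Over all genes, 4.45% had 0 reads in CK. The part of these markers in the NIP values was not tested. In bulk root RNA, more cells of a type and more RNA per cell cannot be told apart.

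All 7 NIP genes had a higher level in LP than in CK. Together they came to 163.3 RPKM in LP and to 53.2 RPKM in CK, a ratio of 3.07. Of the 7 genes, 6 passed the filter on the mean level. Among those 6, 5 reached 2-fold higher, 0 reached 2-fold lower and 1 stayed between these limits. Over all genes tested, 8.68% were at least 2-fold higher and 16.2% at least 2-fold lower. The share higher was 9.28% among genes with a product name and 6.98% among those of them with a mean level in the NIP range of 5.06 to 34.4 RPKM, where 8.32% were lower. Without the filter 6 of the 7 NIP genes were at least 2-fold higher, against 8.91% of all genes. The median log2 ratio of the 6 NIP genes was 1.63, and that of the product-named genes in the same range of levels was -0.14. A pair of the 6 genes, comp21546_c0 and comp126318_c0, had no CK reads and passed the filter through LP alone, so that they had to differ. The count is given as a description only.

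**Figure D1:**
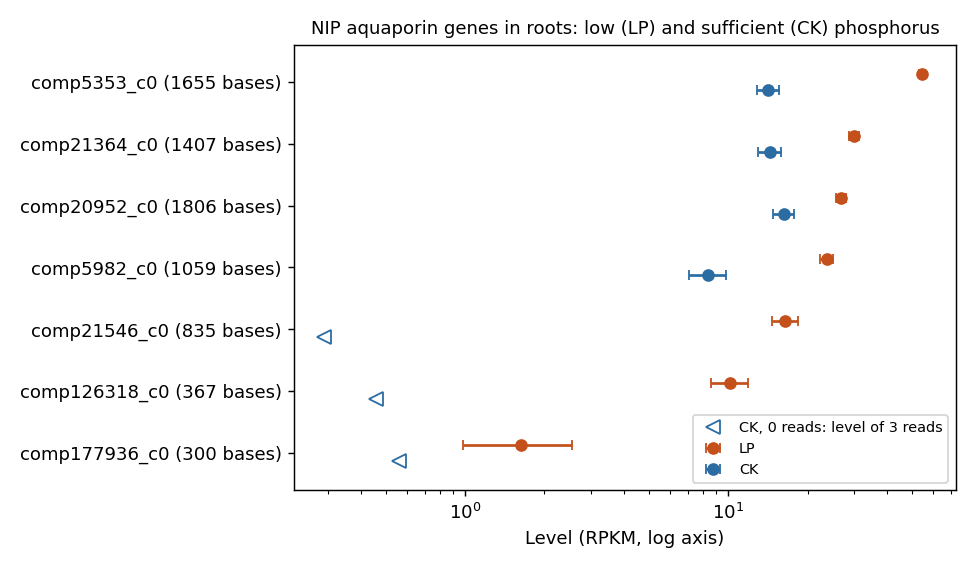
Level of each NIP gene in RPKM (log axis) in the LP and CK libraries, with bars for the 95% counting interval of the reads and open triangles at the level of 3 reads where CK had 0. Every LP point lies to the right of its CK point, and the genes with 0 CK reads have 300, 367 and 835 bases, the shortest of the 7.

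The table gives these genes 4 protein entries as best matches, and no other gene carries any of these 4. All 7 share 1 KEGG orthology entry that no other gene of the table has, and all 7 fall in the carbohydrate transport class of KOG. All 7 carry a GO term for water, either water transport or water channel activity, so the terms do not part water channels from the rest. The term water transport stands on 4 genes (comp5353_c0, comp5982_c0, comp21546_c0 and comp177936_c0), of which the first 3 match the same entry, Q40746. The terms for borate uptake and for a place in the lateral plasma membrane stand on comp21364_c0 and comp20952_c0, which share the entry Q9SV84. The terms for arsenite transport and for water channel activity stand on these last 2 and on comp126318_c0, the only gene of entry Q8VZW1. Genes that share an entry can be copies or pieces of 1 gene, and no sequence of them was used here.

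Among the genes with the water transport term, comp5353_c0 had the highest level of any NIP gene in LP. It stood at 54.5 RPKM in LP (4451 reads) and 14.2 RPKM in CK (425 reads). The LP level was 3.84 times as high, with a 95% interval of 3.47 to 4.25 from the reads, which covers counting error only, as do all intervals here. Its estimated counts had decimals in both libraries, whereas those of comp5982_c0 were whole in both.

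The related gene comp5982_c0 had 23.6 RPKM in LP (1201 reads) and 8.37 RPKM in CK (156 reads). That was 2.82-fold higher in LP (2.39 to 3.36), and its CK level was the lowest of the 4 NIP genes read in CK. The remaining genes with the water transport term were read in LP alone. The gene comp21546_c0, assembled as 2 transcripts, had 16.5 RPKM in LP (305 reads) and 0 reads in CK. At an equal level, the depth of CK would have given 112 reads. Against a floor of 3 CK reads, its LP level was at least 37.4-fold higher by reads per library total, and the exact 95% interval of the reads, which also takes in the error of the LP count, starts at 30.2-fold. The deposited RPKM of this gene was 1.51 times the value computed from its reads and effective length, 10.9 RPKM. The gene comp177936_c0, of 300 bases, had 1.63 RPKM in LP on 19 reads and 0 reads in CK, where an equal level would have given 6.99. It was at least 2.33-fold higher against the floor, and its exact interval starts at 1.72-fold. With a mean of 0.815 RPKM it did not pass the filter, and it was the least abundant of the 7.

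Among the 6 kept NIP genes, the 2 with borate uptake terms had the smallest ratios. The gene comp21364_c0 had 30.1 RPKM in LP (2074 reads) and 14.4 RPKM in CK (362 reads), 2.10-fold higher (1.88 to 2.35), so that its interval holds the limit of 2-fold. Its relative comp20952_c0, also assembled as 2 transcripts, had 26.8 RPKM in LP (2193 reads) and 16.2 RPKM in CK (484 reads). At 1.65-fold higher (1.50 to 1.83) it was the 1 kept NIP gene within 2-fold, with a log2 ratio of 0.69. Of all genes kept, 87.4% had a lower log2 ratio than that. The arsenite transport gene comp126318_c0, of 367 bases, had 10.1 RPKM in LP (153 reads) and 0 reads in CK, against 56.3 reads at an equal level. Its LP level was at least 18.8-fold higher against the floor, and its exact interval starts at 15.1-fold.

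**Figure D2:**
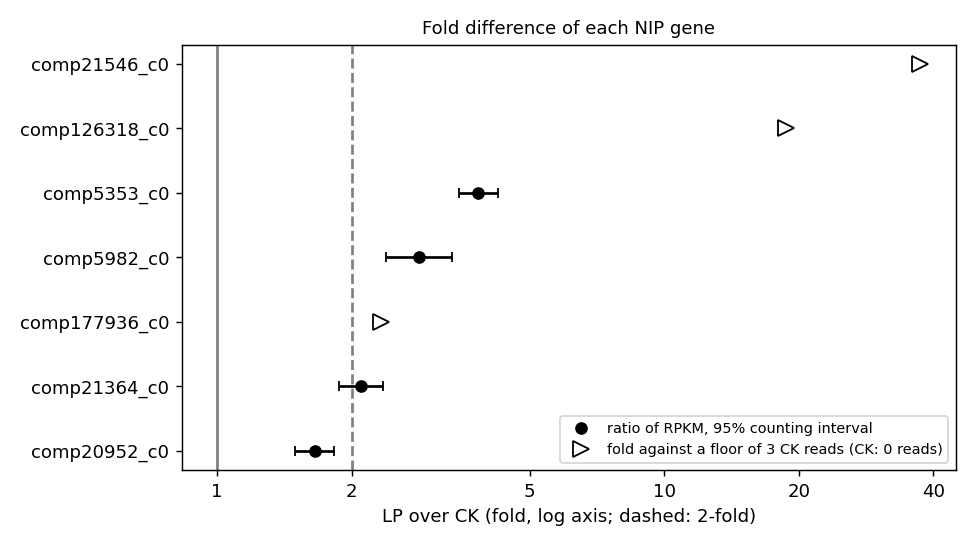
LP over CK fold of each NIP gene (log axis), with 95% counting intervals, and open triangles for the fold against a floor of 3 reads where CK had 0. The intervals of the 4 genes read in both libraries do not overlap each other, from 1.65-fold for comp20952_c0 to 3.84-fold for comp5353_c0.

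The 3 genes with 0 CK reads are the 3 shortest of the family, with 300, 367 and 835 bases, and the 4 others have 1059 to 1806. Over all genes, 4.45% had 0 reads in CK. Among genes with at least 150 reads in LP, as comp21546_c0 and comp126318_c0 have, the share was 2.28%, with 6.79% under 1000 bases and 0.443% from 1000 bases up. Zero CK reads at such LP depth were thus more frequent among short assembled genes in the whole table, and the part of gene length in the NIP values was not tested. With at least 10 reads required in each library, 4 NIP genes were left, of which 3 were at least 2-fold higher against 4.86% of all genes so filtered. The summed level of these 4 was 2.54 times as high in LP.

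The order of the NIP genes by level was not the same in the libraries. In CK, comp20952_c0 (16.2 RPKM), comp21364_c0 (14.4 RPKM) and comp5353_c0 (14.2 RPKM) came first, and neighbours among these 3 did not differ beyond counting error. The ratio of the first to the second was 1.13 (0.984 to 1.30), and of the second to the third 1.01 (0.876 to 1.17). Below them, comp5982_c0 was 1.70-fold under comp5353_c0 (1.41 to 2.05). In LP, comp5353_c0 came first, 1.81-fold above comp21364_c0 (1.72 to 1.91), and each of the 6 steps of the order was larger than counting error. The smallest of those steps was from comp21364_c0 to comp20952_c0, a ratio of 1.12 (1.06 to 1.19).

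By level, the make-up of the family differed between the libraries. The genes with borate uptake terms, which also carry water channel activity, held 57.5% of the summed NIP level in CK and 34.9% in LP, although their own sum was higher in LP, 56.9 RPKM against 30.6 RPKM. The 4 genes with the water transport term held 42.5% in CK and 58.9% in LP, with sums of 96.2 RPKM in LP and of 22.6 RPKM in CK. The gene comp5353_c0 alone held 33.4% of the NIP level in LP and 26.7% in CK. How far these shares vary between libraries of 1 phosphorus level is not known from 1 library each.

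The authors' deposited table calls 5 of the 7 NIP genes changed. By its rounded values, comp5353_c0 and comp21546_c0 have an FDR of 0.00 and comp126318_c0 of 0.04. The authors' deposited table also gives a yes to comp5982_c0 with an FDR of 0.14 and to comp21364_c0 with an FDR of 0.27, and a no to comp20952_c0 (0.63) and comp177936_c0 (0.69). All 3416 genes with a yes in the authors' deposited table have a rounded p-value of at most 0.05 and a log2 fold change of at least 1 in size, with an FDR of up to 0.35. Of all genes, 5.27% have a yes with a higher level in LP in the authors' deposited table. That test compares these 2 libraries and not the phosphorus levels.

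The summed PIP and TIP levels were above that of the NIP genes in both libraries, and the summed SIP level was below it in LP and above it in CK. The NIP genes made up 1.96% of the summed level of the 29 aquaporin genes in LP and 0.526% in CK. The 10 PIP genes, channels of the plasma membrane that carry water, summed to 5114 RPKM in LP and to 7927 RPKM in CK, a ratio of 0.645. By the log2 ratio on RPKM + 1, none of the 10 was at least 2-fold higher and 3 were at least 2-fold lower, against 8.68% and 16.2% of all genes. The median log2 ratio of the subfamily was -0.48. The PIP gene nearest to the NIP genes, comp10467_c0, had 113 RPKM against 55.9 RPKM, an RPKM ratio of 2.02 (1.89 to 2.16). It lay just under the limit only through the added 1, with a log2 ratio of 1.00 after rounding. The authors' deposited table calls it changed, as it does the 3 lower genes. The lowest was comp27182_c0, at 179 RPKM in LP against a CK level of 497 RPKM, 2.78-fold lower (2.65 to 2.92).

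The 10 TIP genes, channels of the vacuole membrane, summed to 2965 RPKM in LP and to 2055 RPKM in CK, a ratio of 1.44. By the same limits 2 were higher and 0 lower, against 8.68% and 16.2% of all genes, with a median log2 ratio of 0.25. The 2 SIP genes summed to 102 RPKM and 66.7 RPKM, a ratio of 1.53, and both stayed within 2-fold. A search of all annotation text for aquaporin, major intrinsic protein or water channel found the same 29 genes and no other. Whether the subfamilies differ in their response was not tested, since there is 1 library per phosphorus level.

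**Figure D3:**
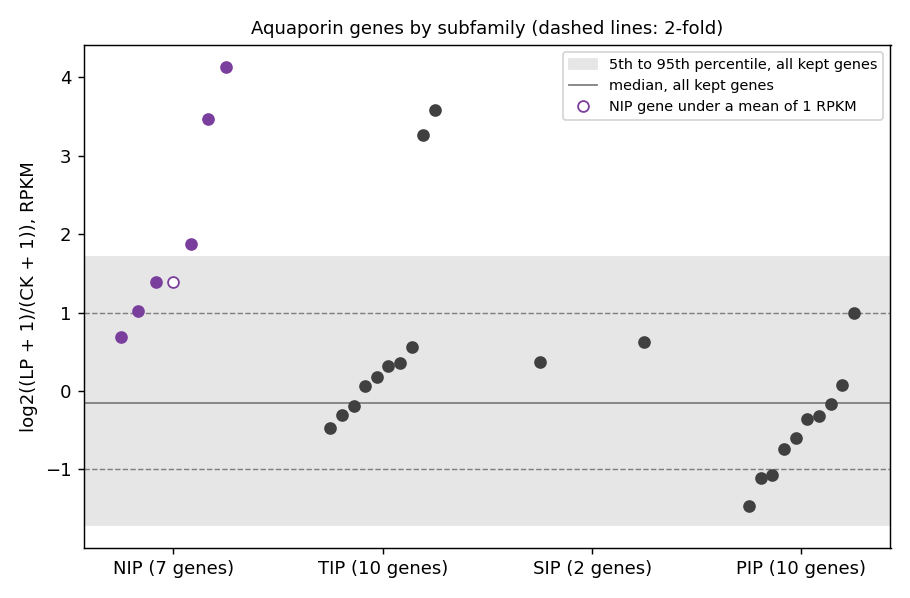
Log2((LP + 1)/(CK + 1)) on RPKM of each aquaporin gene by subfamily, with the median and the 5th to 95th percentile of all genes averaging 1 RPKM or more. The NIP points lie from 0.69 to 4.13, the PIP points reach 1.00 at most, and 2 TIP points stand at 3.27 and 3.58.

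Genes with annotation text on the solutes known for NIP channels in other plants were listed. Such text can name a response to a solute as well as an action on it. The boron list holds 8 genes, of which 2 are the NIP genes above. Of the 6 others, 3 carry a borate efflux term. Some borate exporters of Arabidopsis move boron from root cells towards the xylem, and the terms do not tell which of the 3 genes would do so. These 3 summed to 44.9 RPKM in LP and to 75.0 RPKM in CK, a ratio of 0.598, where the NIP pair with borate uptake terms had a ratio of 1.86. The most abundant, comp26796_c0, stood at 30.4 RPKM in LP against a CK level of 57.2 RPKM, 1.88-fold lower (1.80 to 1.96). The exporter comp22220_c0 had 7.17 RPKM and 9.76 RPKM, and comp24416_c0 had 7.29 RPKM and 8.05 RPKM, with an interval that holds 1 for the latter.

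The remaining 3 genes of the boron list carry terms for the response to boron deprivation and to phosphate starvation. All 3 match the entry Q9C519 and carry no borate efflux term, so that their action on boron itself is not known here. The gene comp16770_c0 stood at 1.44 RPKM in LP against a CK level of 8.62 RPKM, 5.99-fold lower (4.61 to 7.82). Its relative comp19677_c0 had 4.65 RPKM and 13.2 RPKM, and comp22_c0 had 1.75 RPKM and 3.51 RPKM. Both NIP genes were thus higher in LP, and each of the 6 other boron genes had a lower level in LP than in CK. For comp24416_c0 the interval holds 1, and its log2 ratio of -0.13 lay above the median of -0.16 over all genes kept. Without the NIP pair, 0 of the 6 were at least 2-fold higher and 2 at least 2-fold lower, against 8.68% and 16.2% of all genes. The 2 lower genes, comp16770_c0 and comp19677_c0, carry the response terms and no efflux term.

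**Figure D4:**
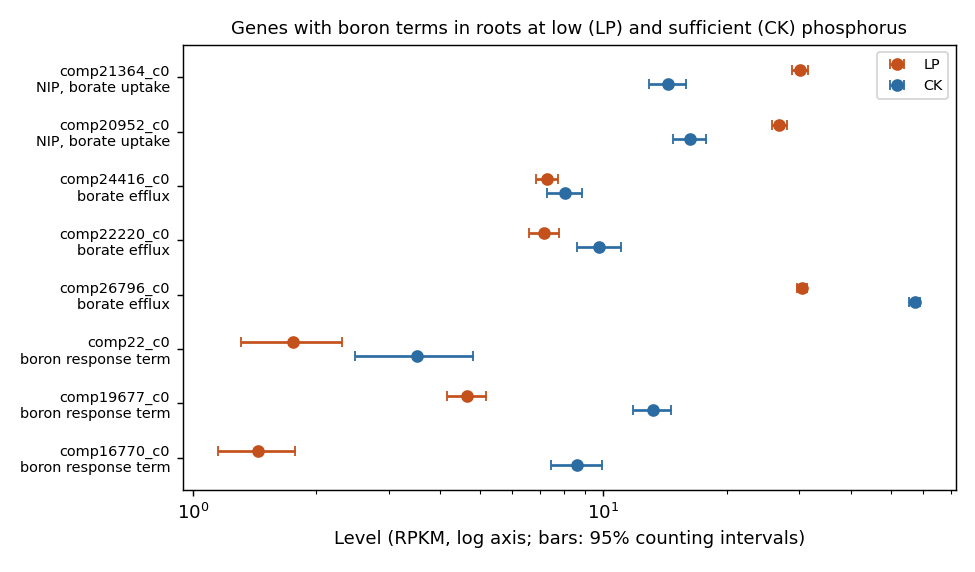
Level in RPKM (log axis) of the 8 genes with boron terms in LP and CK, with 95% counting intervals. The NIP pair with borate uptake terms lies higher in LP, while the borate efflux genes and the genes with boron response terms lie lower in LP, with overlapping intervals for comp24416_c0.

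Of the other solutes, no gene carried text on silicon, silicate or silicic acid. The counts of the lists that follow stand beside 8.68% higher and 16.2% lower over all genes, and were not tested against them. The arsenic and antimony list had 14 kept genes, 3 of them NIP genes. Without these, 1 of 11 was higher and 1 lower, with a median log2 ratio of 0.06. Its arsenite transport ATPases and its arsenite exporter stayed within 2-fold, apart from comp11417_c0, with 2.69 RPKM in LP on 64 reads and 0.11 RPKM in CK on 1 read. The 5 genes with glycerol transport terms had 1 higher and 0 lower (median 0.21). The higher gene was comp27016_c0, a sugar and proton symporter by product name, with 68.1 RPKM against 29.2 RPKM (2.33-fold, 2.19 to 2.49).

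The glycerol metabolism list had 1 of 8 kept genes higher and 0 lower (median -0.14), and 5 of its 9 genes are diacylglycerol kinases that the search text also matched. Glycerol kinase comp28612_c0, which phosphorylates glycerol, had 46.3 RPKM against 28.8 RPKM (1.61-fold, 1.50 to 1.72). The 5 kept urease and urease accessory genes had 0 higher and 0 lower (median -0.17). Urease comp21728_c0, by name the enzyme that releases ammonia from urea, stood at 17.1 RPKM in LP against a CK level of 30.6 RPKM. Of 42 kept genes in the fermentation list, alcohol and lactate dehydrogenases and pyruvate decarboxylase, 3 were higher and 1 lower (median 0.08). The share higher, 7.14%, lay near the 8.68% of all genes. That list includes cinnamyl and aryl alcohol dehydrogenases, and its highest ratio of LP to CK among members with CK reads and an average level from 2 RPKM up was that of alcohol dehydrogenase comp14199_c0, at 22.3 RPKM against 8.63 RPKM.

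The genes with a product name that lay nearest to comp5353_c0 in their levels were a peptide transporter of the POT family (comp25458_c0, 57.3 RPKM in LP and 13.3 RPKM in CK), a peroxiredoxin 6 (comp23152_c0, 52.0 and 15.5 RPKM) and a Rab family gene (comp30673_c0, 60.4 and 12.6 RPKM). Their distances in log2(RPKM + 1) were 0.12, 0.14 and 0.21. Likeness over 2 libraries says only that the levels are close.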

How the data were processed

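Root RNA of 2 libraries, LP and CK, was measured by paired-end Illumina RNA-seq after poly(A) selection, per the labels' protocols, whose text also names another tissue and both RNA fractions. Which assembler, aligner, counter and test the authors ran is not given in the sources used. The authors deposited estimated counts per assembled gene, which are not normalized. The deposited RPKM values are reads per kilobase scaled to library depth, per the file headers. The deposited log2 fold change, p-value and FDR are the authors' own, set LP against CK and carry 2 decimals. For genes with at least 100 reads, deposited RPKM were 1.23 (LP) and 1.22 (CK) times those computed from reads, effective length and library total under 400 bases, and 0.982 and 0.983 times at 1000 bases or more.

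From these, log2((LP + 1)/(CK + 1)) was computed with a pseudocount of 1, which understates the fold of low genes, in Python 3.11.15 with pandas 2.3.3 and scipy 1.17.1. Folds of single genes are RPKM ratios with exact (Clopper-Pearson) 95% intervals of whole-rounded reads. Levels have exact Poisson intervals, and folds against 0 reads use a floor of 3 reads in that library, with the lower end of the exact interval beside them. With 1 library per group there was no test and there are no new p-values. TMM factors came from edgeR 4.0.16 as an alternative scaling, beside other pseudocounts, filters, scalings and limits. The calculation was tested on simulated reads with counting error only, so that variation between plants and shared reads were not covered. Members and gene lists (annotation text searches) were chosen with earlier results of these data known. Named are all NIP genes, the 2 highest and 2 lowest genes in every other list (averaging 2 RPKM or more), some left unprinted, and the 3 genes nearest to the most abundant NIP gene. The genes comp22220_c0, comp24416_c0, comp26796_c0, comp22_c0, comp11417_c0 and comp23232_c0 were named after their values were seen. Annotation is that of the deposited table, unchecked. Near-identical copies can share reads, which leaves the values of single members uncertain.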

Additional observations from a re-analysis of the deposited data

How the results depend on the processing

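All 7 NIP genes kept a higher level in LP under every alternative that gave them a value, 7 to 9 of the 11 run for each gene. The number of NIP genes at least 2-fold apart was 5 of 6 and became 3 of 4 when both libraries needed 10 reads, and 2 of 6 with a limit of 4-fold. It was 4 of 6 with a pseudocount of 5 and 6 of 7 with no filter. Of all genes, 4.86% were at least 2-fold higher with the read filter and 8.91% with no filter. The shares of all genes at the 4-fold limit and with a pseudocount of 5 are not given here. The median NIP log2 ratio of 1.63 became 1.21 when both libraries needed 10 reads, 1.40 with no filter and 1.35 with a pseudocount of 5. The summed ratio over the 6 kept genes, 3.04 (2.88 to 3.22), became 2.54 when both libraries needed 10 reads. The read filter and the open filter change which genes are counted. TMM factors and median of ratios size factors moved the median log2 ratio of all genes by 0.21 and 0.19. Under TMM, median of ratios and centring on the median of all genes in turn, the NIP summed ratio was 3.60, 3.54 and 3.39, that of PIP genes 0.763, 0.751 and 0.720, that of TIP genes 1.71, 1.68 and 1.61, and that of SIP genes 1.81, 1.78 and 1.71. PIP genes at least 2-fold lower numbered 1 under each of these 3, and 1 PIP gene was at least 2-fold higher under them, with a pseudocount of 0.1 and with RPKM recomputed from reads, an alternative added after the data were seen. Centring gave the same count of NIP genes, 5 of 6. The substrate list medians moved by less than counting error under every alternative run. Under TMM the glycerol metabolism median went from -0.14 to 0.09 and the urea median from -0.17 to 0.03. The signs of these medians thus depend on the scaling. No replicate could be left out. No paired analysis was possible because each group has 1 library. Depth limits the genes with 0 CK reads, whose ratio is known only as a bound.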

Other observations

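The 2 TIP genes that stood apart from the other TIP genes were comp28506_c0, with 267 RPKM in LP (5312 reads) and 21.4 RPKM in CK (156 reads), and comp28501_c0, with 291 RPKM in LP (6124 reads) and 29.4 RPKM in CK (226 reads). They were 12.5-fold (10.6 to 14.7) and 9.93-fold (8.69 to 11.4) higher in LP, while the other 8 TIP genes stayed within 2-fold. Each of these 2 genes alone had a higher level in LP than the 7 NIP genes together.

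Among the genes of glycerol metabolism, glycerol-3-phosphate dehydrogenase (NAD+) comp22791_c0, which links glycolysis to glycerolipid synthesis, had 33.3 RPKM in LP on 2251 reads but none in CK, at least 276-fold higher by reads per library total against a floor of 3 CK reads, with an exact 95% interval from 224-fold. It has 1385 bases. Of genes of at least 1000 bases with at least 150 LP reads, 51 of 11515 had 0 CK reads. Aryl-alcohol dehydrogenase comp14302_c0 had 25.5 RPKM in LP on 850 reads but none in CK, at least 104-fold higher against the same floor, with an interval from 84.6-fold. It is shorter, with 784 bases. Of genes under 1000 bases with at least 150 LP reads, 319 of 4699 (6.79%) had 0 CK reads.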
